A study of Homo sapiens with 12 samples.

Results

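The histone gene cluster on 6p22, the largest group of histone genes in the human genome, was examined for acetylation of lysine 27 on histone H3 (H3K27ac) in cultured cancer cells. Its members were all peaks that overlapped, by at least 1 bp, either of 2 windows of the hg19 build, chr6:26000000-26300000 and chr6:27080000-27880000. The rule used position only, and no measured value. It found 413 of the 233262 peaks in the 12 deposited lists. After overlapping peaks of the 8 lists that carry the name of a line alone were merged, these formed 82 of 70648 regions, 24 in the first window and 58 in the second.

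The 8 lists came from 5 cell lines: H358 (2 libraries) and H2009 (2 libraries), both lung adenocarcinoma, HCC95 (1 library), a squamous cell carcinoma of the lung, Ishikawa (2 libraries), an endometrial carcinoma, and BICR31 (1 library). BICR31 is labelled lung adenocarcinoma, while the series' design text lists it under head and neck squamous lines, and the design text was followed. Another 4 libraries of H2009 carry the labels Empty, Control, e3KRAB1 and e3KRAB2, 1 library each, and are called the short lists here. Peak names inside the short lists carry the tags NoSg, D98, N1 and Ctrl2 in that order, so the tag of the library labelled e3KRAB2 goes against its label. D98, the tag of the library labelled Control, does not by itself bear out that label. All 12 samples are labelled as untreated and were grown in the same medium, neither e3 nor KRAB is spelled out, and no label says that replicates were separate cultures, so spread between replicates may be technical. The lines were not checked against marker genes, since no hg19 annotation was used here.

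Histones package DNA, and each cell division needs a new supply of the 4 core histones H2A, H2B, H3 and H4 and of the linker histone H1. Most of the genes that supply them lie in this cluster, are switched on together as cells enter S phase, and make messenger RNA that ends in a stem loop in place of a poly(A) tail. H3K27ac marks active promoters and enhancers. Genes for tRNAs and zinc finger proteins lie among the histone genes, so a peak in these windows need not belong to a histone gene.

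The RefSeq gene table (assembly GRCh38.p14) lists 55 coding histone genes with a HIST1 symbol or synonym on chromosome 6. Of these, 6 encode H1, 12 H2A, 15 H2B, 10 H3 and 12 H4. It lists 11 histone pseudogenes as well. Genes were taken by symbol, and whether each lies inside the windows searched for peaks was not checked. H2BC1 and the other genes named here are therefore not shown to lie in those windows. A promoter window, from 250 bases before to 50 after the start of the gene, was held for 50 of the coding genes. These windows were searched on both strands for 3 short motifs known from histone promoters: the octamer ATTTGCAT, which is bound by the transcription factor OCT1 and drives H2B genes, the CCAAT box CCAAT, and the TATA box TATAAA. The octamer was present in 12 of 15 H2B promoters (80%) and 9 of 11 H2A promoters (81.8%), in 1 of 8 H3 promoters, and in none of the 6 H1 or 10 H4 promoters. Over all 27305 genes with a promoter window it was present in 1.80%. The CCAAT box was in 43 of the 50 histone promoters (86%, against 35.7% of all), the exceptions all being H4 genes, of which 3 of 10 held it. The TATA box was in 33 of 50 (66%, against 11.95% of all). A match is a description of the letters and not of a bound site. Promoters of H2BC1, H4C13 and H1-1 are printed to show where the motifs lie in a promoter of the H2B, H4 and H1 classes, 5′ to 3′ on the strand of the gene, with capitals at matches of the motifs on either strand. Each had the most kinds of motif in its class, with 9 H2B genes and 3 H1 genes tied and the tie settled by symbol. H4C13 is therefore not typical of the H4 promoters, most of which lack the CCAAT box.
H2BC1: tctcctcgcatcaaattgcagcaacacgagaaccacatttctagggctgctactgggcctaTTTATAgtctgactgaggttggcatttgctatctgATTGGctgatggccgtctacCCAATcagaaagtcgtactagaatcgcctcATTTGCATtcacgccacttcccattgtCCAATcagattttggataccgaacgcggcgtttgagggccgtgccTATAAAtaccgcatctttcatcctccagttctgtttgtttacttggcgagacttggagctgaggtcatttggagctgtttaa
H4C13: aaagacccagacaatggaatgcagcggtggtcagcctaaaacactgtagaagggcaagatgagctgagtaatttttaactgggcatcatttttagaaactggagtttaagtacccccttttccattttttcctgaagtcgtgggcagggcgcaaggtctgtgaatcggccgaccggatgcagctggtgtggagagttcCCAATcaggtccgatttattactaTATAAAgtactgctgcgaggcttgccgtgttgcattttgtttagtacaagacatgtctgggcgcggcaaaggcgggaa
H1-1: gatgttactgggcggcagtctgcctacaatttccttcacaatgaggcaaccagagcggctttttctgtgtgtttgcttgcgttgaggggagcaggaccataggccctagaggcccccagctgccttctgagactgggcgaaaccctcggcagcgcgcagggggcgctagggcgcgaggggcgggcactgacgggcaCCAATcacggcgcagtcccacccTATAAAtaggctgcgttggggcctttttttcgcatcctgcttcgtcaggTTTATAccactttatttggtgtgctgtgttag

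Many H2A and H2B genes also stand head to head. Among the RefSeq genes taken by symbol, 10 pairs on opposite strands had promoter windows that overlapped head to head. Of these pairs, 9 joined an H2A gene to an H2B gene, such as H2BC11 with H2AC11. The other pair joined H3C4 to H2BC7, which also paired with H2AC7. In all, 19 coding genes took part. Motifs were searched on both strands, so a match where such windows overlap is counted for both genes of the pair. The octamer counts of H2A and H2B promoters are therefore not separate counts. How many matches were shared was not counted. The gene table and the peak lists are on different builds, so single peaks below are given by hg19 position and not by gene.

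Every line had at least 42 peaks in the cluster (plot of peaks and called bases by list). H358 had 49 and 54 peaks in its 2 libraries (51.5 ± 3.54, SD, n = 2), H2009 had 56 and 53 (54.5 ± 2.12, SD, n = 2), and Ishikawa had 42 and 43 (42.5 ± 0.707, SD, n = 2). HCC95 had 45 peaks and BICR31 had 61. BICR31 had the highest number and the longest list, 42148 peaks, where the other 7 lists held 23400 to 27311. As a percent of its own list the cluster took 0.145% in BICR31 and 0.157% to 0.208% in the others, so the BICR31 share was the lowest of the 8. Read depth is not part of a peak list and is unknown here.

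**Figure D1:**
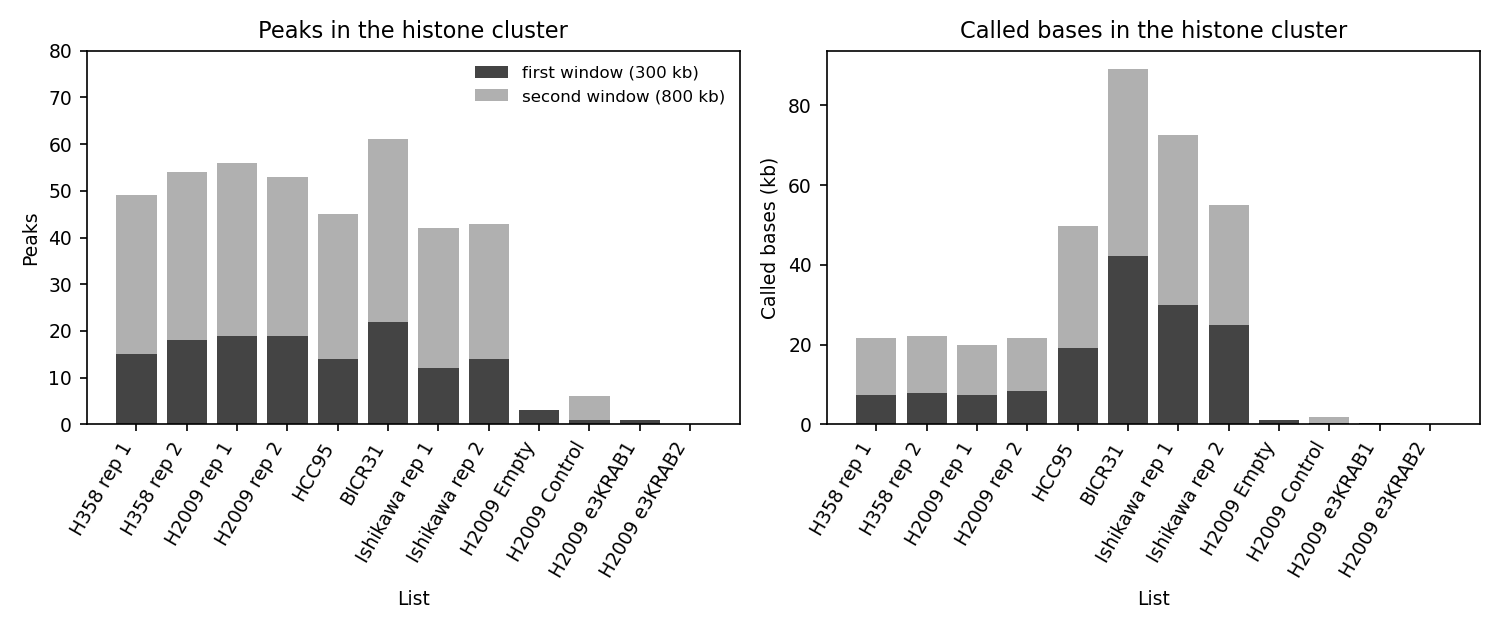
Number of peaks (left panel, count) and called bases (right panel, kb) in the 2 windows for each of the 12 lists, stacked by window, 1 bar per list and no error bars. The 8 line lists hold 42 to 61 peaks and the 4 short lists 0 to 6, and called bases are lowest among the line lists in the 4 narrow lists (H358 and H2009).

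Called bases set the narrow lists apart from the others. The 4 narrow lists of H358 and H2009 covered 21640, 22190, 19784 and 21716 bases of the cluster, all within a narrow range. HCC95 (broad form) covered 49801, BICR31 (broad form) 89205, and the Ishikawa libraries (5-column form) 72628 and 55025. In the first window BICR31 had 14.1% of all bases called, Ishikawa 9.99% and 8.27%, HCC95 6.38%, and the narrow lists 2.41% to 2.76%. The 2 broad lists differed from each other, and both Ishikawa values fell between them. Between lists of different form, line and peak calling cannot be told apart in these totals. Within the narrow form, H358 and H2009 could be compared directly. H358 minus H2009 was −3 peaks (exact two-sided permutation p = 0.667) and 1165 called bases (exact permutation p = 0.667). The difference in bases turned to −59 with the higher-ranked 50% of peaks and to −78 in the first window alone, and was 199 without H2009 replicate 1. Leaving out 1 library moved the difference in peaks between −5.5 (without H358 replicate 2) and −0.5 (without H358 replicate 1). With 2 libraries against 2 the smallest p of an exact permutation test is 0.333, so neither difference could have passed a threshold of 0.05.

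Peak density was above that of the sequence between the 2 windows, the nearest comparison, in each of the 5 lines, a number of lines too small for the test to pass 0.05. The cluster held 44.5 and 49.1 peaks per Mb in H358 against 24.4 and 28.2 between the windows. H2009 held 50.9 and 48.2 against 23.1 and 19.2, HCC95 40.9 against 24.4, Ishikawa 38.2 and 39.1 against 24.4 and 25.6, and BICR31 55.5 against 28.2. The log2 ratio of cluster to intervening density was 0.84 for H358, 1.23 for H2009, 0.75 for HCC95, 0.63 for Ishikawa and 0.98 for BICR31. Its mean was 0.88, it was above 0 in 5 of 5 lines, and the exact two-sided sign-flip permutation test gave p = 0.0625, the smallest that 5 lines allow (Benjamini-Hochberg adjusted p = 0.188 over 9 tests). Among the higher-ranked 50% of peaks of each list the mean fell to 0.30. Each window also had more peaks than 97.3% to 99.8% of genome tiles of its own length with any peak, depending on the list and the window.

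Called bases were concentrated in the first window and toward both ends of the second (profile of called bases along the windows). In BICR31 the 3 bins of 100 kb in the first window held 12410, 12433 and 17430 called bases, and the last bin of the second window held 15082, while the 7 bins before it held 1521 to 8870. Ishikawa had the same outline at both ends of the second window, with 8576 and 5108 bases in its first bin and 11160 and 10320 in its last. In the third bin of the first window the lines parted: HCC95 (10301) and BICR31 (17430) had their highest values of any bin there, and Ishikawa, at 4344 and 3350, was lower than in the other bins of that window. Among the narrow lists, H358 had 1607 and 1032 bases in that bin and H2009 had 2568 and 2968. The 2 pairs stood apart in most other bins too, in either direction. In the first bin of the first window H358 was higher, with 3245 and 4426 bases against 2408 and 2755. In the second bin of the second window H2009 was higher, with 2030 and 1946 against 1566 and 699.

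**Figure D2:**
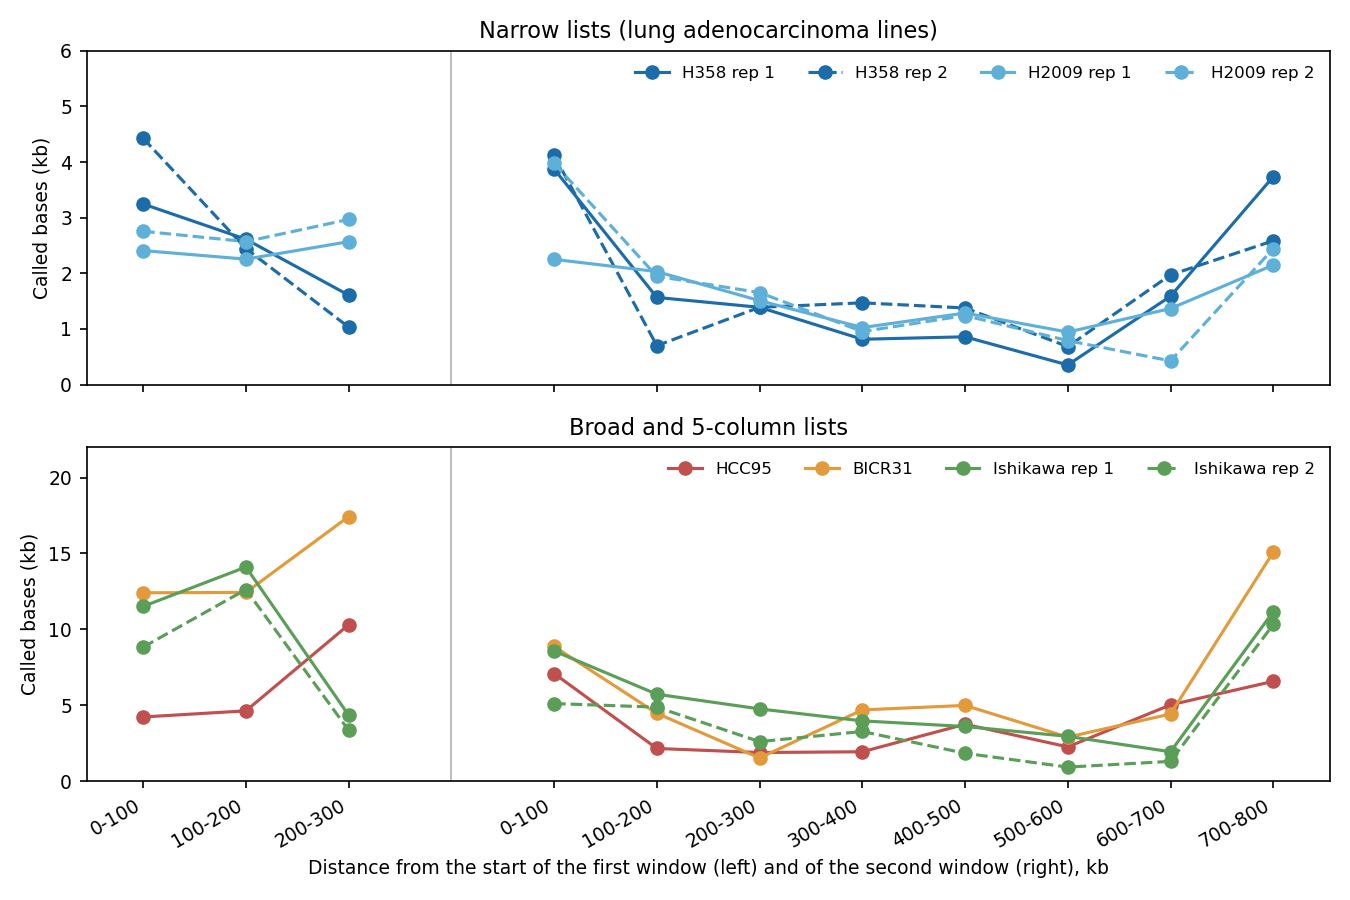
Called bases (kb) of each of the 8 line lists in bins of 100 kb, by distance in kb from the start of the first window (left of the grey line) and of the second window (right), 1 line per list, narrow lists above and the other forms below on a different scale. In the third bin both HCC95 and BICR31 rise to their highest value while H358 and Ishikawa are below their values in the first 2 bins.

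H358 lacked peaks over chr6:26184501-26284593, a length of 100093 bp and the longest run between neighbouring H358 regions in either window. It was chosen after the values were seen and has no test. Empty runs were sought in H358 only. H2009, Ishikawa and BICR31 had no peak between chr6:27357450 and chr6:27439729, so long runs are not particular to H358. Over chr6:26184501-26284593, H358 had 0 peaks in both libraries. H2009 had 7 and 4 peaks (2486 and 2139 called bases), HCC95 6 (9780 bases), BICR31 8 (16624 bases), and Ishikawa 2 and 3 (3445 and 3197 bases). The stretch held 9 merged regions, of which 5 were at least 2000 bp wide. At chr6:26270908-26274218 BICR31 and HCC95 alone had a peak, of 3311 and 2554 bp. At chr6:26223674-26225552 and chr6:26233475-26235697 both H2009 libraries, HCC95 and BICR31 had one, with fold enrichments at the latter of 4.63 and 6.60 in H2009, 3.49 in HCC95 and 3.62 in BICR31. Fold enrichment is the authors' own value per peak, read as such from the column order of the lists, and what it was computed against is not stated.

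Over the whole cluster, 8 regions had a peak in both H2009 libraries and in neither of H358 (9.76% of 82, against 3.66% of all merged regions), 6 of them in the first window. The mirror set, both H358 libraries and neither of H2009, held 6 regions (7.32%, against 3.31% of all), of which 1 was in the first window.

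A common core ran through the cluster (map of peaks by region). Of the 82 regions, 16 had a peak in all 8 libraries, or 19.5% (95% Wilson interval 12.4 to 29.4, counting error only), where 12.1% of all merged regions did. In the sequence between the windows 8 of 32 regions (25%) did so. With a peak in at least 1 library of every line there were 20 regions (24.4%, against 14.7% of all). Regions seen in a single library were fewer: 19 of 82 (23.2%, against 47.7% of all), and 21 (25.6%, against 55.4% of all) had peaks in exactly 1 line. Of those 21, 20 lay in the second window, which holds 58 of the 82 regions, and 1 in the first. The core share followed the settings: with only the higher-ranked 50% of peaks it was 8.33% against 10.5% elsewhere, and with lists of equal length 10% against 12.3%, so that it then stood below the rest of the genome.

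**Figure D3:**
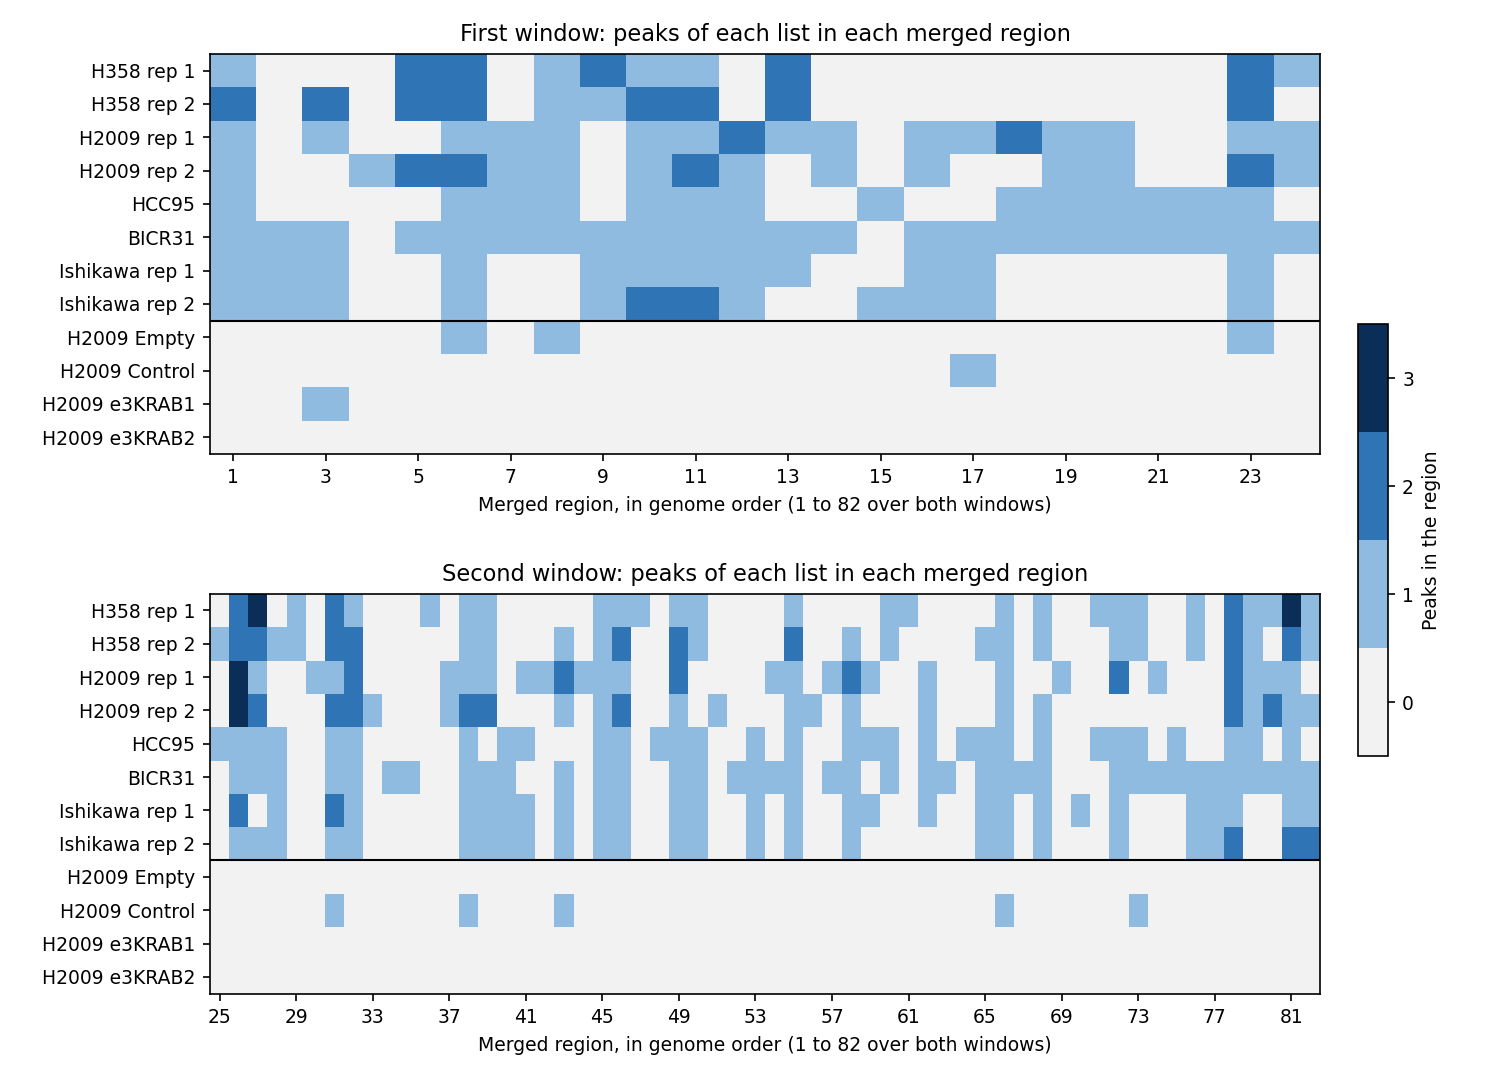
Number of peaks (colour, 0 to 3) of each list (rows) in each of the 82 merged regions in genome order (columns, not to scale along the chromosome), first window above and second window below, with the 4 short lists under the black line. Columns filled in all 8 upper rows are the 16 core regions, and in columns 14 to 22 both H358 rows are empty.

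The 5 widest core regions are given in order of width. The widest, chr6:26122080-26127058 (4979 bp), was covered over 4979 and 4596 bases in Ishikawa and 3180 in BICR31. HCC95 covered 465 bases of it, H358 461 and 607, and H2009 253 and 455. Fold enrichment there was 4.25 and 3.89 for H358, 3.97 and 5.81 for H2009, 4.09 for HCC95 and 2.83 for BICR31, and the Ishikawa scores were 168 and 138. The score in the Ishikawa lists is a deposited number with no stated unit and starts at 50. The percentile rank of this region by value in the own list, where 50 is the middle peak and 100 the highest, ran from 3.2 in BICR31 to 64.9 in HCC95.

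At chr6:26155227-26159551 (4325 bp) fold enrichment was 5.05 and 3.60 for H358, 4.26 and 4.01 for H2009, 2.93 for HCC95 and 2.98 for BICR31, with Ishikawa scores of 316 and 298. Ishikawa ranked it high in its own lists (81.8 and 76.9), while HCC95 (5.4) and BICR31 (5.9) ranked it near the bottom. The region chr6:27859951-27864113 (4163 bp), at the far end of the second window, had fold enrichments of 3.79 and 4.84 for H358, 4.02 and 4.02 for H2009, 3.17 for HCC95 and 2.77 for BICR31, and Ishikawa scores of 240 and 165. It was covered over 4163 and 3992 bases in Ishikawa and 1997 to 2082 in the broad lists. At chr6:27098737-27102111 (3375 bp) fold enrichment was 5.22 and 4.19 for H358, 3.62 and 4.38 for H2009, 3.15 for HCC95 and 3.14 for BICR31, and Ishikawa scores were low, 71.6 and 125. The last of the 5, chr6:26054386-26057633 (3248 bp), had fold enrichments of 4.97 and 4.84 for H358, 3.81 and 3.72 for H2009, 3.31 for HCC95 and 3.10 for BICR31, with scores of 302 and 296. Each of these 5 regions was split into 2 or 3 separate peaks in at least 1 narrow list.

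Other core regions were narrower and ranked high. These were picked after their values were seen. At chr6:27355726-27357450 (1725 bp) the median rank over the 8 libraries was 91.1, with fold enrichments of 8.55 and 5.38 for H358, 8.25 and 6.92 for H2009, 4.16 for HCC95 and 5.21 for BICR31, and Ishikawa scores of 452 and 440. At chr6:27485950-27487334 (1385 bp) the median rank was 86.2, with 9.50 and 7.44 for H358, 6.97 and 8.82 for H2009, 4.29 for HCC95 and 6.29 for BICR31, while Ishikawa, at 162 and 151, ranked it close to the middle of its lists. Both lay in the second window. In the first window the core region with the highest median rank, 66.1, was chr6:26284594-26287019.

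Core regions held the strongest cluster peak of 6 of the 8 lists. The highest fold enrichment in the cluster was 9.50 in H358 replicate 1 (chr6:27486849-27487212) and 8.82 in H2009 replicate 2 (chr6:27486729-27487217), both in the core region at 27485950. In H2009 replicate 1 it was 8.25 (chr6:27356515-27357123). In H358 replicate 2 it was 9.02 (chr6:27219244-27219634), inside the core region chr6:27217998-27220451, and that region also held the highest Ishikawa scores, 485 and 575. HCC95 had its highest value, 5.17, at chr6:27255678-27256154, and BICR31 its highest, 6.32, at chr6:27706023-27706721. The HCC95 and BICR31 peaks were the exceptions in lying outside the core. Each of these 8 peaks ranked between 93.0 and 98.0 in its own list, so none reached the top 2% of its list.

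In each list the widest peak was not the strongest one. In H358 they were 1026 bp (chr6:27155630-27156655) and 920 bp (chr6:27774594-27775513), and in H2009 858 bp (chr6:27218832-27219689) and 1245 bp (chr6:26233475-26234719). In Ishikawa they were 4979 bp (chr6:26122080-26127058) and 3035 bp (chr6:26054599-26057633). The widest in HCC95, 2953 bp at chr6:26215864-26218816, had a fold enrichment of 2.65, rank 2.35 in its list. The widest in BICR31, 3311 bp at chr6:26270908-26274218, had 2.54, rank 1.13. In both broad lists the widest peak of the cluster was thus among the lowest by fold enrichment.

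Line-specific regions were rare. A region counted as specific when every library of the line and no library of another had a peak in it. H358 had 1 (1.22%, against 1.32% of all merged regions), chr6:27136680-27137034, with fold enrichments of 4.92 and 5.44. H2009 had 1 (1.22%, against 1.27% of all), chr6:27205723-27206057, with 3.27 and 6.74. HCC95 had 2 (2.44%, against 6.20% of all), chr6:27375358-27375649 at 3.24 and chr6:27619217-27619508 at 3.18. Ishikawa had 0, against 5.11% of all. BICR31 had 5 (6.10%, against 21.9% of all). The 3 widest were chr6:27197730-27199288 (1559 bp, fold enrichment 3.21), chr6:27706023-27706721 (699 bp, 6.32) and chr6:27453558-27454133 (576 bp, 5.52). All 9 specific regions lay in the second window, which holds 58 of the 82 regions.

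A region missing from a single line, with a peak in every library of the other 4, was found 5 times. H2009 and HCC95 lacked 1 each, chr6:27446250-27447458 (against 0.392% of all merged regions) and chr6:27247073-27249093 (against 0.93% of all). At the first, fold enrichment was 6.38 and 7.24 in H358, 4.02 in HCC95 and 5.89 in BICR31, with Ishikawa scores of 127 and 160. At the second it was 5.18 and 6.04 in H358, 5.22 and 6.57 in H2009 and 3.53 in BICR31, with Ishikawa scores of 171 and 176. H358 lacked 1, chr6:26171472-26173838 (against 0.309% of all), where H2009 had 5.65 and 5.70, HCC95 4.83, BICR31 3.83 and Ishikawa scores of 285 and 382. Ishikawa lacked 2, chr6:26087400-26088987 and chr6:27832302-27835299 (against 0.702% of all). At the former, fold enrichment was 8.28 and 6.01 for H358, 6.96 and 4.13 for H2009, 4.04 for HCC95 and 5.09 for BICR31. At the latter it was lower, 3.86 and 3.96 for H358, 3.93 and 4.51 for H2009, 3.13 for HCC95 and 2.97 for BICR31. BICR31 lacked 0 (against 0.282% of all). It had a peak in 61 of the 82 regions (74.4%, against 59.2% of all) and in 22 of the 24 in the first window.

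HCC95 and BICR31 alone shared 3 regions (3.66%, against 3.56% of all merged regions), 2 of them in the stretch that H358 lacks. Ishikawa and BICR31 alone shared 2 (2.44%, against 1.07% of all), and H2009 and BICR31 1 (1.22%, against 0.822% of all). No region was exclusive to H358 and H2009 (against 0.497% of all). H358 shared none with HCC95, Ishikawa or BICR31 alone (against 0.1%, 0.178% and 0.555% of all), H2009 none with HCC95 or Ishikawa (against 0.0807% and 0.142% of all), and HCC95 none with Ishikawa (against 0.45% of all). BICR31, the longest list, was in each of the 3 pairs that had such regions.

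Libraries of 1 line shared more called bases of the cluster than libraries of different lines. The base-pair Jaccard index, the bases called in both lists divided by those called in either, was 0.437 for the H358 replicates, 0.304 for the H2009 replicates and 0.667 for the Ishikawa replicates. The 25 pairs of libraries from different lines ran from 0.152 to 0.405 with a mean of 0.239. The mean within lines, 0.469, exceeded that by 0.230, and the exact one-sided permutation test over 420 ways to place the pairs gave p = 0.00476, where the smallest possible is 0.00238 (Benjamini-Hochberg adjusted p = 0.0429 over 9 tests). Without Ishikawa replicate 1 or replicate 2 the difference was 0.129 or 0.135 (exact permutation p = 0.0286 for each). Replicates always share a file form, and most pairs of different lines do not. In the narrow form alone, H358 with H2009 gave 0.210 to 0.320, and the highest of these 4 values, for H358 replicate 1 with H2009 replicate 2, was above the value for the H2009 replicates. Across forms, Ishikawa with BICR31 reached 0.398 and 0.405, and HCC95 with BICR31, both broad, 0.393.

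Counted by region, both replicates had a peak in 31 of the 43 regions where either H358 library did (72.1%, against 58.2% elsewhere). For H2009 this was 32 of 53 (60.4%, against 56.1%), and for Ishikawa 36 of 42 (85.7%, against 74.8%). H2009 replicate 1 had 14 regions that its replicate lacked, and replicate 2 had 7.

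Cluster peaks differed between lists in their rank by width and tended to lie below the middle of their list by value. Neither mean over lines passed its test against the middle (plot of ranks within each list). Median widths were 375 and 357.5 bp in H358 (375 and 382 elsewhere), 288.5 and 347 bp in H2009 (347 and 373 elsewhere), 1018 bp in HCC95 (814 elsewhere), 1441 and 1190 bp in Ishikawa (1507 and 954 elsewhere) and 1324 bp in BICR31 (892 elsewhere). As a percentile rank of width in the own list, the medians were 50.03 and 44.3 for H358, 32.9 and 43.8 for H2009, 63.6 for HCC95, 47.4 and 62.1 for Ishikawa, and 75.8 for BICR31. The mean over lines lay 5.95 above 50, with 3 lines above and 2 below (exact two-sided sign-flip permutation p = 0.438). It was 20.98 above 50 in the first window alone but −3.84 from it in the second window alone, −1.70 with the higher-ranked 50% of peaks, and 0.977 above it without BICR31. H358 and H2009 were the lines below 50, and these are the narrow lists.

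Median fold enrichment was 4.92 and 4.87 in H358 (5.35 and 5.34 elsewhere), 4.99 and 4.93 in H2009 (5.27 and 5.29 elsewhere), 3.49 in HCC95 (3.80 elsewhere) and 3.62 in BICR31 (3.82 elsewhere). Ishikawa scores had medians of 151 and 160 (150 and 149 elsewhere). The median rank by value was 38.0 and 35.8 for H358, 41.3 and 38.6 for H2009, 32.1 for HCC95, 50.2 and 52.7 for Ishikawa, and 39.03 for BICR31. On average over lines this lay −10.1 from the middle, below it in 4 of 5 lines (exact two-sided sign-flip permutation test, 4 of 32 sign patterns as extreme, Benjamini-Hochberg adjusted p = 0.188). It was −14.2 in the first window alone and −2.95 in the second window alone. The Ishikawa lists hold no q, so they kept their score rank when the other lines were ranked by the deposited −log10 q. The mean over the 5 lines then moved to 1.75 above the middle (exact permutation p = 0.813). By −log10 q the median ranks were 39.9 and 38.98 for H358, 43.5 and 44.1 for H2009, 54.0 for HCC95 and 70.1 for BICR31. The narrow lists thus stayed below the middle and the broad lists rose above it.

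**Figure D4:**
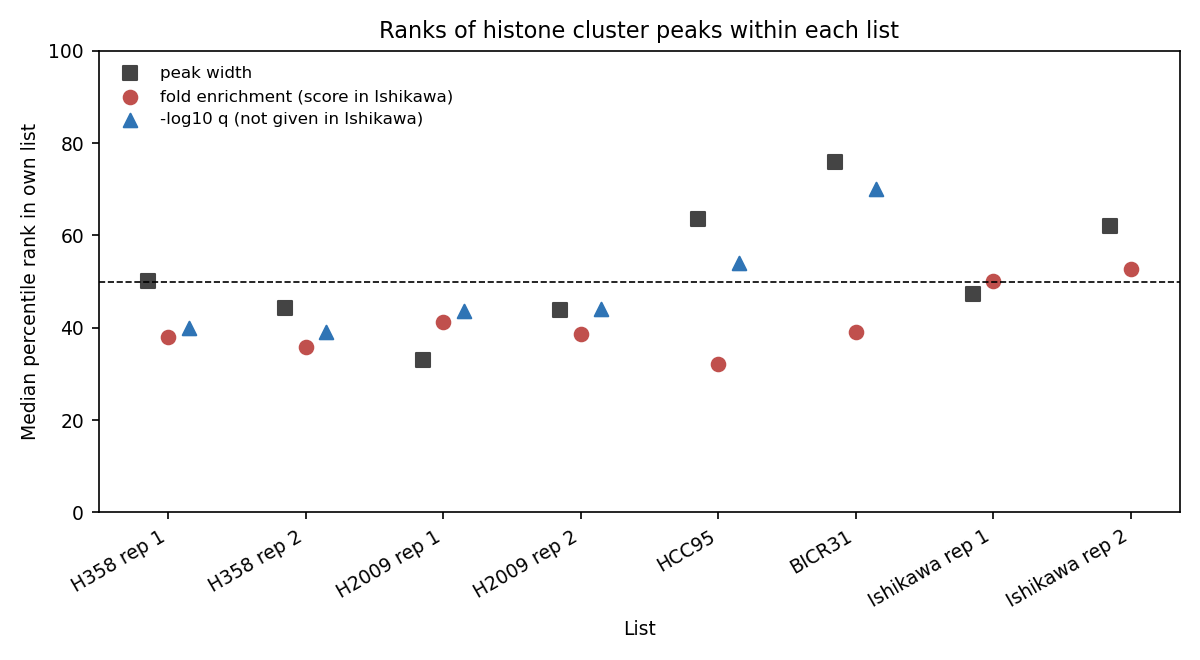
Median percentile rank of cluster peaks within their own list (axis from 0 to 100) by width (squares), by fold enrichment or, in Ishikawa, score (circles) and by −log10 q (triangles), for each of the 8 line lists. In BICR31 the width and −log10 q medians stand at 75.8 and 70.1 and the fold enrichment median at 39.03, and the dashed line is the middle of a list.

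By fold enrichment or score, peaks of core regions stood lower in the cluster than peaks of core regions elsewhere. In H358 the median fold enrichment of peaks in core regions was 4.97 and 4.72 in the cluster and 6.08 and 5.99 in core regions elsewhere. In H2009 it was 5.12 and 4.94 against 5.74 and 5.70, in HCC95 3.95 against 4.25 and in BICR31 3.99 against 4.59. Ishikawa differed little, with median scores of 292 and 271 against 293 and 288. The median rank of core peaks was lower in the cluster in all 8 libraries. The difference was −0.0441 and −2.78 in Ishikawa and −34.0 to −13.0 in the other 6 libraries, with a mean over lines of −17.3. For peaks outside the core it was −1.36, below 0 in 3 of 5 lines. This comparison was added after the values were seen and is given without a test. Every peak counted, so a core region split in a list entered with each of its peaks. The 16 core regions of the cluster held 29 peaks of H358 replicate 2, but 16 each of HCC95 and BICR31. Core peaks were not compared by −log10 q or by the highest peak of each region.

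Wide regions stood apart from wide regions elsewhere by value (plot of value by region width). At least 2000 bp wide, a limit chosen after the values were seen, were 26 of the 82 regions (31.7%, against 15.8% elsewhere), 15 in the first window and 11 in the second. In the cluster, the median rank of the highest fold enrichment in a wide region was 40.8 and 34.7 for H358, 33.6 and 39.9 for H2009, 21.3 for HCC95 and 19.2 for BICR31. Wide regions elsewhere stood at 66.3 and 64.9, 63.3 and 60.8, 55.3 and 59.7. Ishikawa scores went the other way, 76.95 and 74.01 in the cluster against 70.3 and 73.1 elsewhere. By −log10 q the gap in BICR31 narrowed to 74.3 against 76.4, and in HCC95 to 60.3 against 63.6, and in the narrow lists the cluster stood at 49.0 to 62.4 against 69.8 to 73.1. Cluster regions under 2000 bp ranked 42.1 to 59.8 by fold enrichment or score, above narrower regions elsewhere in 6 of 8 libraries, the 2 H2009 libraries being the exception.

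**Figure D5:**
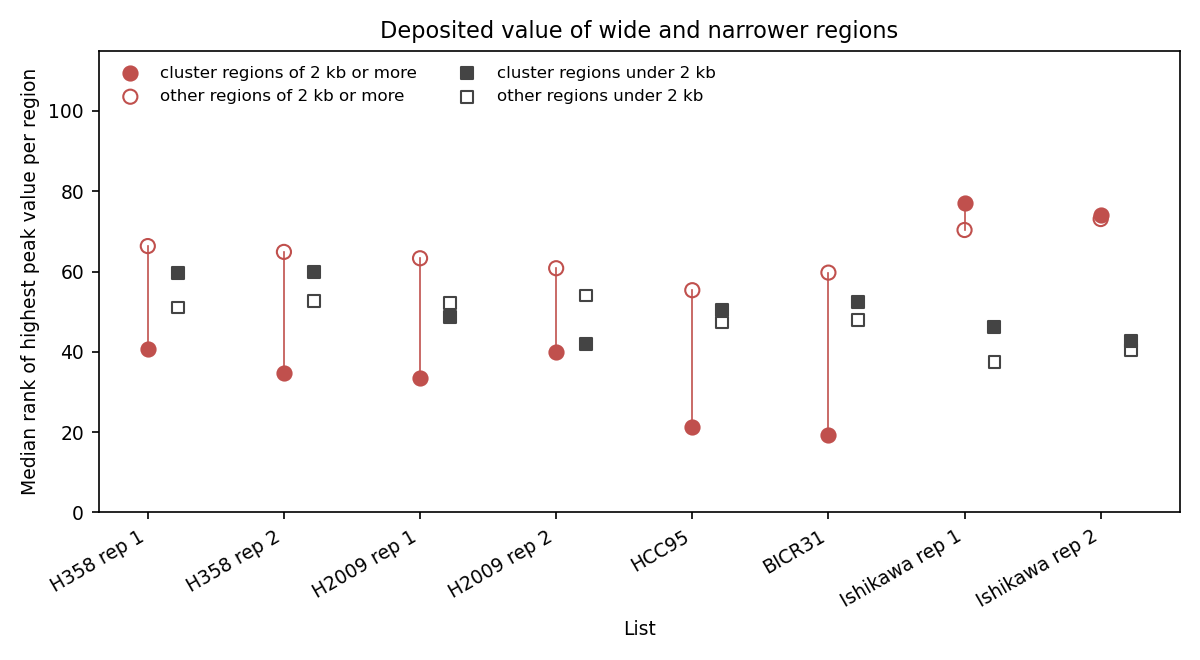
Median percentile rank, within the own list, of the highest deposited value per merged region (fold enrichment, or score in Ishikawa) for cluster regions (filled) and other regions (open) of 2 kb or more (circles, joined by a line) and under 2 kb (squares). In H358, H2009, HCC95 and BICR31 the filled circle lies below the open one, and in Ishikawa it lies above.

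Each narrow list had a minority of its cluster regions, of any width, split into 2 or more peaks. Of the cluster regions with a peak of H358 replicate 1, 27.03% (10 of 37) held at least 2 of its peaks, against 20.5% of all its regions. In H358 replicate 2 it was 45.9% (17 of 37, against 22% of all), in H2009 replicate 1 19.6% (9 of 46, against 19.2% of all) and in H2009 replicate 2 33.3% (13 of 39, against 19.8% of all). The mean excess over regions elsewhere was 11.1 percentage points, above 0 in 4 of 4 libraries (exact two-sided sign-flip permutation test, 2 of 16 sign patterns as extreme, the fewest that 4 libraries allow). These are 2 replicates of each of 2 lines, and libraries of 1 line are not independent. Without H358 replicate 2 the excess was 6.93 points. Among the higher-ranked 50% of peaks the excess was 0.0581 points. Neighbouring summits in a split region of the cluster stood a median of 884 and 888 bp apart in H358 and 964.5 and 829 bp in H2009, where elsewhere the medians were 654 to 694 bp.

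The short H2009 lists held little of the cluster. They contained 1960 (Empty), 3250 (Control), 2315 (e3KRAB1) and 1375 (the library labelled e3KRAB2) peaks in all, and 3, 6, 1 and 0 of these lay in the windows. That was 0.153%, 0.185%, 0.0432% and 0% of the lists, against 0.204% for the mean of the 2 full H2009 lists. The mean difference, −0.109 percentage points, was below 0 in 4 of 4 lists (exact two-sided sign-flip permutation test, 2 of 16 sign patterns as extreme, the fewest possible), and −0.0775 without the library labelled e3KRAB2. All 4 lists are of 1 line and were set against the same 2 full lists, so they are not independent. When the full H2009 lists were shortened to the same length by value, the difference was 0.0235 (exact permutation p = 0.75), so its sign depended on this choice.

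The 10 peaks fell in 10 different regions, and none was shared by any of the short lists, so no region had a peak in all 12 lists. Empty had chr6:26055744-26056185 (fold enrichment 4.78), chr6:26087827-26088214 (5.08) and chr6:26286278-26286592 (5.89), all in the first window. Control had chr6:26205454-26205751 (4.21) in the first window and 5 peaks in the second, the strongest at chr6:27280269-27280562 (6.001). The only peak of e3KRAB1 was chr6:26034229-26034523 (4.60). All 10 were 294 to 442 bp wide. Of them, 7 overlapped a peak of a full H2009 list, 5 overlapped both, and 5 lay in core regions. The same shares over all peaks of the short lists are not given here, so these counts are description only. No core region was found in e3KRAB1 or in the library labelled e3KRAB2. These lists held only 1 and 0 cluster peaks, so no contrast with Empty and Control can be read from this.

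Recovery of the H2009 regions was below that of the rest of the genome in each short list. Merging the 2 full H2009 lists gave 34 cluster regions with a peak in both. Empty recovered 2 (5.88%, 95% Wilson interval 1.63 to 19.1, against 9.28% of all such regions), Control 3 (8.82%, 3.05 to 22.96, against 15.5% of all) and e3KRAB1 0 (upper Wilson limit 10.2%, against 11.1% of all). The library labelled e3KRAB2 also recovered 0 (upper limit 10.2%, against 6.81% of all). The mean difference from regions elsewhere was −7.00 percentage points, below 0 in 4 of 4 lists (exact two-sided sign-flip permutation test, 2 of 16 sign patterns as extreme, the fewest possible, Benjamini-Hochberg adjusted p = 0.188), and −7.06 without the library labelled e3KRAB2. Against the regions of a single full H2009 list it was smaller, −4.03 without H2009 replicate 1 and −4.92 without replicate 2. The 4 short lists are of 1 line and were scored on the same 34 regions, so they are not independent. None of the 34 regions was in the higher-ranked 10% by fold enrichment in both full lists. Elsewhere 1152 of 16940 such regions were, a share so small that 0 of 34 does not set the cluster apart. The short lists recovered 24.0% to 41.1% of those 1152 regions. The part that peak value plays in the low recovery was not tested. With 1 library per label, Empty and Control were not compared with e3KRAB1 and e3KRAB2.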

How the data were processed

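Chromatin from 12 cell line samples was precipitated with an antibody against H3K27ac and sequenced. Reads were aligned with BWA to hg19, per the submitters' processing notes, and the sources used here do not give the version, peak caller or read depth. The deposited lists were 1 per sample, in narrowPeak (H358, H2009), broadPeak (HCC95, BICR31) or 5-column form (Ishikawa, with peak names beginning MACS). The authors deposited a fold enrichment ratio and a −log10 q per peak in the narrow and broad lists, an other value, the summit offset in bases, in the narrow lists, and a score per peak in the Ishikawa lists. Each value was ranked only within its own list.

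Peaks on chromosomes 1 to 22 and X were kept, and overlapping peaks of 8 lists were merged (1 bp). Tests were exact permutation tests over lines or libraries, one-sided for the Jaccard index and two-sided otherwise, with Benjamini-Hochberg adjustment over 9 tests, in Python 3.11.15 with numpy 2.4.6, pandas 2.3.3 and scipy 1.17.1. They were tested on simulated lists. Regions named were the 5 widest of the core, line-specific regions (3 widest per line), regions missing from 1 line, and the strongest and widest peak per library; others are said to be chosen after their values were seen. Members, lists and tests were chosen with earlier results of these data known. Promoter sequences are from RefSeq (GRCh38.p14), and its coordinates served only to pair genes with each other, not with peaks. Alternatives covered the peak threshold, the overlap rule, each window alone, list length, merging distance and the replicate block. Replicates were left out alone or with the same-numbered replicate of the other lines.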

Additional observations from a re-analysis of the deposited data

Results flagged for a closer look

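HCC95 was the only list with peaks on alternate sequences of chromosome 6, which lie outside the windows and entered no comparison. It held 193 such peaks on 7 sequences, and the other 11 lists held 0. They were not analysed further here.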

How the results depend on the processing

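Of 86 alternatives, 76 kept the direction and side of the threshold or, for values without a test, stayed within their error. The core share of 19.5% became 8.33% with the higher-ranked 50% of peaks, 0% when a library had to cover 50% of a region (0.130% elsewhere) and 10% with lists of equal length. The width rank reversed to −1.70 with the higher-ranked 50% and to −3.84 in the second window alone. The value rank was −9.03 with the 8 libraries as units (exact sign-flip permutation p = 0.0313), where libraries of 1 line are not independent. It was 1.75 by −log10 q with Ishikawa kept at its score, an alternative chosen after seeing the data. The H358 minus H2009 difference in called bases reversed to −59 with the higher-ranked 50% and to −78 in the first window alone. The short list share reversed to 0.0235 against shortened H2009 lists. Their causes were not tested.

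With replicate 1 of H358, H2009 and Ishikawa left out together, or replicate 2 of each, fewer lists needed a peak for a core region. The core share was then 25.7% (14.5% elsewhere) or 21.3% (14.6% elsewhere). The width rank was 3.96 to 7.94, the value rank −10.3 to −9.88 and the density ratio 0.88 to 0.89 (log2). Leaving out 1 library alone gave a split excess of 6.93 to 14.8 points and a Jaccard difference of 0.129 to 0.309. It also gave an H358 minus H2009 difference of −5.5 to −0.5 peaks and 199 to 2131 bases. Without 1 full H2009 list the recovery difference was −4.92 to −4.03 and the short list share difference −0.113 to −0.105. The Jaccard difference was lowest without an Ishikawa replicate. The H358 and H2009 libraries share only replicate numbers. Their deviations had r = 0.00470 over 70648 regions and −0.197 over the 82 cluster regions. With the replicate block the differences were −3 peaks (exact sign-flip permutation p = 1) and 1165 bases (exact p = 0.5), and no call changed. Recovery of the higher-ranked 10% gave no value, and the midpoint rule was not run for the Jaccard index or called bases. Read depth is unknown, so a missing peak shows only that none was called.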

Other observations

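Regions called in few libraries were narrow and those called in all were wide. Regions with a peak in 1 library had a median width of 292 bp in the cluster (19 regions) and 426 bp elsewhere. Regions with a peak in all 8 had 2486 bp (16 regions) and 2150 bp. Merging more lists widens a region by itself, so the comparison is with regions of the same number of libraries only, and it has no test. The median gap between neighbouring regions was 8681 bp in the first window, 7984 bp in the second and 13202 bp between the windows.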
